A study of Mus musculus with 11 samples.

Results

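The meningeal fibroblast genes described here are 34 genes of the membranes around the brain, followed across hippocampal RNA of single F1 mice. They were taken from a list of names matched to the Ensembl identifiers of the count tables through the GENCODE annotation of GRCm38, with a minimum of 10 counts in total over the 11 mice. All 34 listed genes had an entry and passed this minimum, out of 20589 genes that passed it and 38293 genes listed. Total counts per gene ran from 130 for Cdh1 to 86860 for Ptgds, and 30 of the 34 had at least 10 counts in every mouse. The study asked whether folic acid (FA) given to dams only before conception alters the offspring, here their hippocampal gene expression. All F1 mice were wildtype hybrids of the strains 129S6/SvEv and C57BL/6J and were 14 weeks old. CD F1 mice (3 males and 3 females) came from dams whose diet held 2.3 mg FA per kg before mating, and FD F1 mice (2 males and 3 females) came from dams whose diet held 40 mg FA per kg over the same period. From mating on, all mice of both groups received the control diet, so no offspring ate the supplemented diet itself. Litters are not named for the sequenced mice, so mice of one group may share a dam, and p-values then measure only the spread between these mice.

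The leptomeninges, the arachnoid and the pia mater, are sheets of fibroblasts that cover the brain surface and follow its larger vessels inwards. Their fibroblasts lay down fibrillar collagen and small leucine-rich proteoglycans, carry solutes between cerebrospinal fluid and blood with organic anion and neurotransmitter transporters, and secrete retinoic acid and bone morphogenetic proteins (BMPs), signals known to guide the growth of the brain underneath. The hippocampus is not meningeal tissue. It is bordered by pia in the hippocampal fissure and along its free surface. A dissected hippocampus can hold a strip of membrane, whose amount was not measured here. The study checked its dissections for adjacent tissue, choroid plexus above all, by qPCR of Otx2 and Prlr. In RNA of whole tissue, fewer cells of a type and less RNA per cell cannot be told apart.

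Reads assigned to genes ranged from 11737554 to 44447006 per mouse, so that 3 counts, the limit that a count of 0 allows, correspond to between 0.0675 and 0.2556 CPM (the count scaled to the library total). Fibroblast-defining genes were present in every mouse. Summed over Col1a1, Col1a2 and Col3a1, the chains of type I and type III collagen, the level ran from 8.26 CPM in CD female 3 to 47.7 CPM in FD male 2. By length, Ptgds was the highest member at a mean of 210.0 RPKM (CPM per kilobase of exon), followed by Apod at 36, Dcn at 12.7 and Igfbp2 at 10.7 RPKM. Cdh1 and Foxd1 were the lowest at 0.124 and 0.138 RPKM. Ptgds and Apod are also known from oligodendrocytes, Ptgds from the choroid plexus, and Spp1 from microglia, so these levels need not come from fibroblasts alone.

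Promoter sequences were matched for 24 of the 34 members in RefSeq (GRCm38.p6). The windows shown are the 250 bases before the transcript start of Slc13a4 and Fmod, members that followed the others closely (r = 0.97 each), and of Ogn and Aspn, neighbouring proteoglycan genes on chromosome 13 that followed them less. Capitals mark the letters TATAAA of a TATA box. They also mark CCAAT, the core of a CAAT box. The same holds for GGGCGG, a GC box. All were searched on both strands.
Slc13a4 (chr6:35308127-35308376, minus strand): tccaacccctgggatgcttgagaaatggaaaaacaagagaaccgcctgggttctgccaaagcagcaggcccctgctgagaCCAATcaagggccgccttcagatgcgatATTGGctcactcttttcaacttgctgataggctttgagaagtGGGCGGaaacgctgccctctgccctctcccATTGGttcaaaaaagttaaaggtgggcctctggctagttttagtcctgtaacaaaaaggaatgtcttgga
Fmod (chr1:134037004-134037253, plus strand): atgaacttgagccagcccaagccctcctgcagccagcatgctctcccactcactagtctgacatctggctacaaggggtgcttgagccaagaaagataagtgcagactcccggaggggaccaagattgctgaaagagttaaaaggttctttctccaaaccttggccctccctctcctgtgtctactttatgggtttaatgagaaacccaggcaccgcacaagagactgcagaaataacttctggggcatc
Ogn (chr13:49607765-49608014, plus strand): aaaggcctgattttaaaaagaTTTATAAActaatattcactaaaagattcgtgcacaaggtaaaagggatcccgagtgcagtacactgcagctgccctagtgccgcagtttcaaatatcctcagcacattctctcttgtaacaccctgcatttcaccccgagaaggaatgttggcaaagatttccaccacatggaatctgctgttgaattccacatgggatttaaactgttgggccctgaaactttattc
Aspn (chr13:49544193-49544442, plus strand): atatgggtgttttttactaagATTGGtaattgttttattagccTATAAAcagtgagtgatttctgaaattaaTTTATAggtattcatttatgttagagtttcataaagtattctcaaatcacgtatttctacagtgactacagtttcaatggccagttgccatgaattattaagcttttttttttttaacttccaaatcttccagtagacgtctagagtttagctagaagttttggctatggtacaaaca
Slc13a4 holds CAAT box letters at 3 places and GC box letters at 1, and Fmod holds none of either. Ogn holds TATA box letters on both strands at overlapping positions, and Aspn holds them at 2 places with CAAT box letters at 1. Over the 29 member promoters, the TATA box letters occurred in 4, the CAAT box letters in 9 and the GC box letters in 11. Over all 32851 RefSeq mouse promoters of this length the shares were 12.4%, 33.8% and 32.7%. The letters describe these windows and are not evidence that a factor binds there.

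The members varied together from mouse to mouse. For each gene, log2 CPM was standardized over the 11 mice, and the mean over the 34 members gave a level per mouse in SD units. This level was -0.26 in CD male 1, 0.35 in CD female 1, 0.19 in CD male 2, -0.58 in CD female 2, -0.01 in CD male 3 and -1.08 in CD female 3. In the FD mice it was 0.69 in female 1, -0.88 in male 1, 0.67 in female 2, 1.80 in male 2 and -0.87 in female 3. The FD mice therefore lay on both sides of the CD mice, with 3 above every CD mouse and the other two below all of them but CD female 3, and the groups overlapped (CD -0.23 ± 0.53, SD, n = 6; FD 0.28 ± 1.15, SD, n = 5). FD male 2 had the highest value of 30 of the 34 members, and CD female 3 the lowest of 15. Without FD male 2, the FD mean was -0.10.

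**Figure D1:**
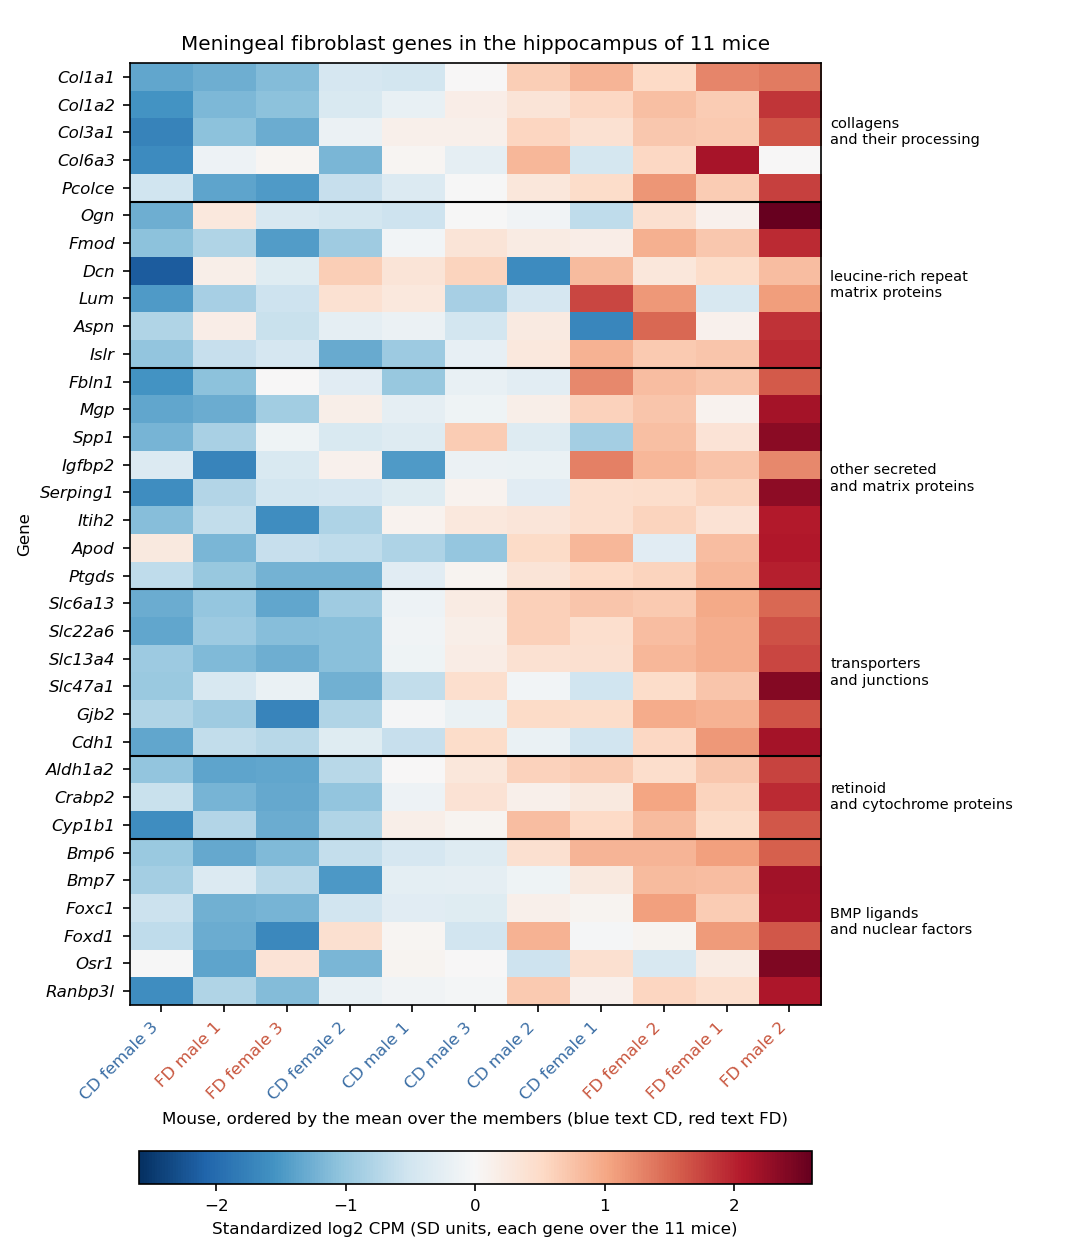
Standardized log2 CPM (colour, SD units over the 11 mice) of the 34 members (rows, grouped by role) in each mouse (columns, ordered by the mean over the members, blue names CD and red names FD). Most rows run from low in CD female 3, FD male 1 and FD female 3 to high in FD male 2, while Dcn, Lum, Aspn and Col6a3 break the order.

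A single component held 76.3% of the variance of the standardized members, and the next one 5.9%. Each member was then set against the mean of the other 33 members. Pearson's r had a median of 0.93 over the members (median Spearman's rho 0.90), with 22 members above 0.9, 10 between 0.5 and 0.9, and 2 below 0.5, the limit under which a member was taken to depart from the rest. The 11 points of each correlation share libraries, and genes of one list are not independent, so r is given as a description. Without CD female 3 and FD male 2, the mice farthest from the median level, the median r was 0.88. The range widened to between 0.04 and 0.98, and 6 members fell below 0.5. These were Dcn (0.04), Aspn (0.20), Ogn (0.27), Osr1 (0.37), Lum (0.40) and Spp1 (0.48), while Col6a3 had 0.56. The member level had r = -0.03 with the total count on genes (rho = 0.08) and r = 0.22 with the share of reads outside genes (rho = 0.15). With the share of reads that fell on more than one gene it had r = -0.42 (rho = -0.30). Leaving out the 2 mice farthest from the median of each measure gave r = -0.17 for the total count. It gave 0.42 for the share outside genes and -0.49 for the share on more than one gene. The part of these measures in the result was not tested.

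**Figure D2:**
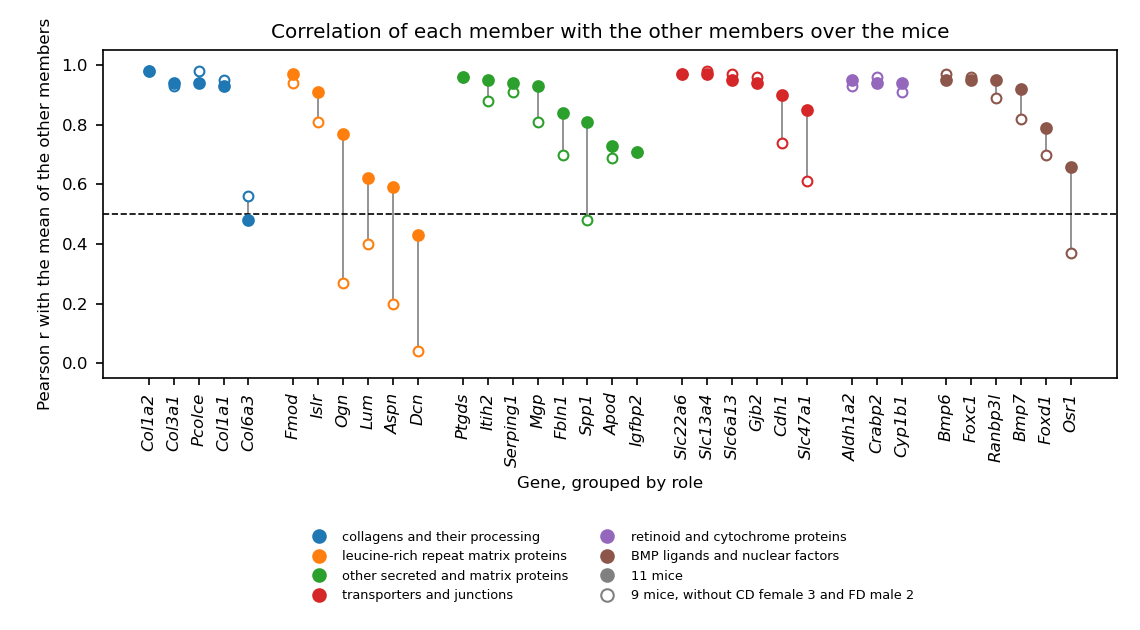
Pearson's r between each member's log2 CPM and the mean of the other members (vertical axis), grouped by role; filled points use 11 mice, open points leave out CD female 3 and FD male 2, and the dashed line marks r = 0.5. Slc22a6, Slc13a4, Slc6a13, Gjb2, the retinoid genes and 4 of the 5 collagen genes stay above 0.9 with and without these mice, while Dcn drops from 0.43 to 0.04 and Ogn from 0.77 to 0.27.

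Among the collagens and the proteins that process them, 4 of 5 members moved together. Col1a2 (chromosome 6, 4504814 to 4541544, GRCm38), the second chain of type I collagen, had the highest r of all members, 0.98. Its level was 8.99, 13.4, 12, 8.02, 11 and 4.19 CPM in the CD mice (male 1, female 1, male 2, female 2, male 3 and female 3, the order used below for CD) and 14.3, 5.24, 15.4, 27.9 and 5.51 CPM in the FD mice (female 1, male 1, female 2, male 2 and female 3, the order used below for FD). Col1a2 was thus low in the same 3 mice as the list as a whole, and high in FD male 2. Col3a1 (r = 0.94) tracked Col1a2 with r = 0.98 between the pair, and Col1a1 (r = 0.93) with r = 0.95. Pcolce, which enhances the trimming of procollagen, had r = 0.94.

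The transporters and junction genes followed the list closely, with a median r of 0.94. Their SDs of log2 CPM ran from 0.82 to 1.5, with the largest median of the groups, 1.12 against 1.03 for the retinoid and cytochrome genes. The highest SDs were those of Cdh1 (1.5) and Slc47a1 (1.35), whose lowest counts were 0 and 1, so counting error adds to them. Slc13a4 (chromosome 6, 35267957 to 35308131), a sulfate carrier, had r = 0.97 and levels of 5.80, 8.73, 8.53, 2.82, 7.43 and 3.13 CPM in CD and 12.9, 2.67, 12.1, 23.5 and 2.44 CPM in FD mice. The highest mouse therefore had 9.61 times the lowest. The organic anion transporter Slc22a6 (r = 0.97), the GABA transporter Slc6a13 (r = 0.95) and the gap junction gene Gjb2 (r = 0.94) spanned 12.2, 5.92 and 6.99 times between the lowest and the highest mouse. Cdh1, the epithelial cadherin found at cell contacts of the arachnoid, had r = 0.90, and Slc47a1, an exporter of organic cations and toxins, had r = 0.85. All 6 were highest in FD male 2.

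The 3 retinoid and cytochrome genes were equally close to the rest. Aldh1a2, which makes retinoic acid, had r = 0.95, and Crabp2, which carries retinoic acid to the nucleus, and Cyp1b1, a monooxygenase that acts on retinoids and steroids, had r = 0.94 each. Crabp2 spanned 17.9 times, from 0.248 CPM in FD female 3 to 4.45 CPM in FD male 2. Of the BMP ligands and nuclear factors, Bmp6 (0.95), Foxc1 (0.95), Ranbp3l (0.95) and Bmp7 (0.92) followed the list, Foxd1 (0.79) and Osr1 (0.66) less so. Foxc1 is a forkhead factor required for meningeal development, and BMP7 and BMP6 are secreted ligands. The exons of Bmp6 share 224 bases with Txndc5 on the other strand, a gene with 16442 counts, and no strand setting of the counting is stated, so reads in that stretch cannot be told apart.

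The secreted and matrix proteins outside these families had r from 0.71 to 0.96. Ptgds, the prostaglandin D2 synthase of cerebrospinal fluid, had the highest r of this group, and its levels were 242.0, 396.0, 352.0, 137.0, 304.0 and 194.0 CPM in CD and 491.0, 158.0, 408.0, 988.0 and 137.0 CPM in FD mice. Itih2 (0.95), Serping1 (0.94) and Mgp (0.93) were near it. Fbln1 (0.84), the osteopontin gene Spp1 (0.81), Apod (0.73) and Igfbp2 (0.71) followed less closely. Fbln1, Apod and Igfbp2 also varied little in size, with the highest mouse at 1.71, 1.94 and 2.18 times the lowest.

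The leucine-rich repeat matrix proteins were the group with the lowest median r, 0.69. Fmod, fibromodulin (chromosome 1, 134037254 to 134048277), was an exception with r = 0.97, as was Islr with 0.91. The exons of Islr share 181 bases with those of Islr2, which had 27236 counts against 3227 for Islr. The other 4 lay lower, with Ogn at 0.77, Lum at 0.62, Aspn at 0.59 and Dcn at 0.43.

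Dcn, decorin (chromosome 10, 97479609 to 97518143), a proteoglycan that binds collagen fibrils, had the lowest Pearson's r. By rank it did not depart as far (rho = 0.57), and Osr1 (0.39), Col6a3 (0.50), Aspn (0.52) and Ogn (0.55) had a lower rho. Against Col1a1, Col1a2, Col3a1 and Lum alone, Dcn had r = 0.57. Its level was 79.5, 94.4, 40.3, 88.5, 86.2 and 33.6 CPM in CD and 83.6, 75.0, 78.7, 93.7 and 63.6 CPM in FD mice. It was low in CD male 2 and CD female 3, while the other 9 mice lay between 63.6 and 94.4 CPM, FD male 2 included. CD male 2 stood near the middle for the list as a whole. Without CD male 2, r was 0.58, and without CD female 3 it was 0.23. Its neighbour Lum, lumican, 47.0 kb away, had r = 0.63 with Dcn and the smallest spread of all members, from 6.19 CPM in CD female 3 to 10.5 CPM in CD female 1.

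Col6a3, a chain of type VI collagen (chromosome 1, 90765923 to 90843971), was the other member below 0.5, at 0.48. Its level was 3.22, 2.76, 4.13, 2.22, 2.96 and 1.93 CPM in CD and 6.05, 3.05, 3.73, 3.18 and 3.23 CPM in FD mice. FD female 1 was the highest mouse, and FD male 2, the highest for 30 other members, lay within the CD range. Without FD male 2, r was 0.69, and without CD female 3 as well it was 0.56. Between Dcn and Col6a3 themselves r was 0.20 and rho -0.22.

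**Figure D3:**
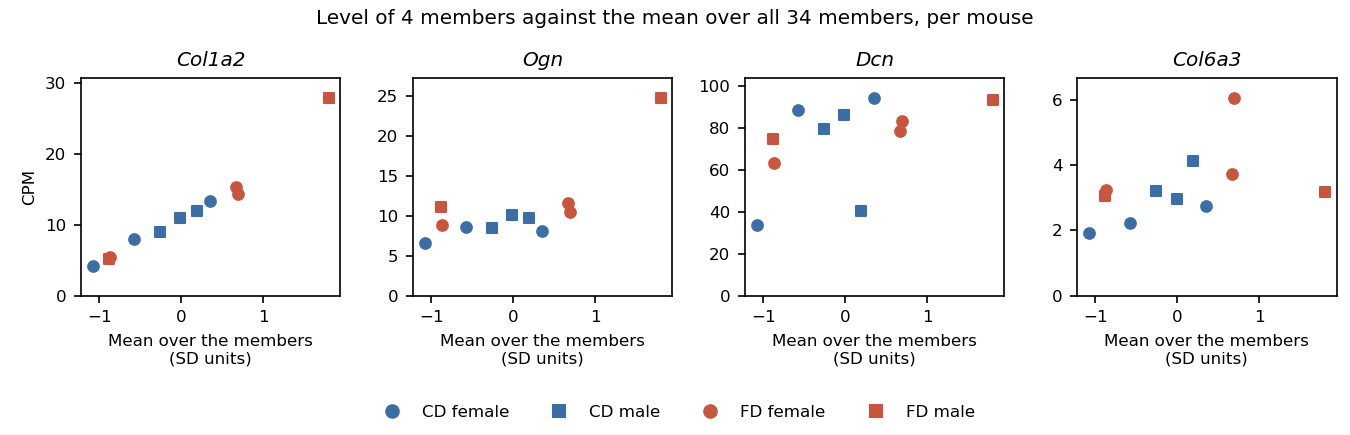
Level in CPM (vertical axes, from 0) of Col1a2, Ogn, Dcn and Col6a3 against the mean over the 34 members in SD units (horizontal axes), 1 point per mouse; blue CD, red FD, circles females, squares males. Each gene is itself 1 of the 34 behind the mean. Col1a2 climbs steadily, Ogn stands out in FD male 2 at 24.8 CPM, Dcn is low in CD male 2 and CD female 3, and Col6a3 is highest in FD female 1.

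Maternal diet was compared with edgeR's quasi-likelihood test over all 20589 genes, with Benjamini-Hochberg adjustment and the study's threshold of 0.1. None of the 34 members passed it, and the adjusted p was 1.0 for each, while 14 genes passed in all (0.068% of those tested). At an unadjusted p under 0.05 there were 7 members, against 2.59% of all genes. By DESeq2 none passed the adjusted threshold and 7 had an unadjusted p under 0.05. The fitted fold change was above 0 for all 34 members, against 48.2% of all genes, and the median log2 fold change was 0.37 over the members against -0.004 over all genes. Because the members vary together, their 34 signs are not independent. Without FD male 2, 24 of 34 members had a fold change above 0, the median was 0.09, and Ogn and Col6a3 were the 2 members with an unadjusted p under 0.05, against 2.4% of all genes in that fit. Without FD male 1 or FD female 3 the median was 0.55 or 0.54. CD and FD values overlapped for all 34 members.

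**Figure D4:**
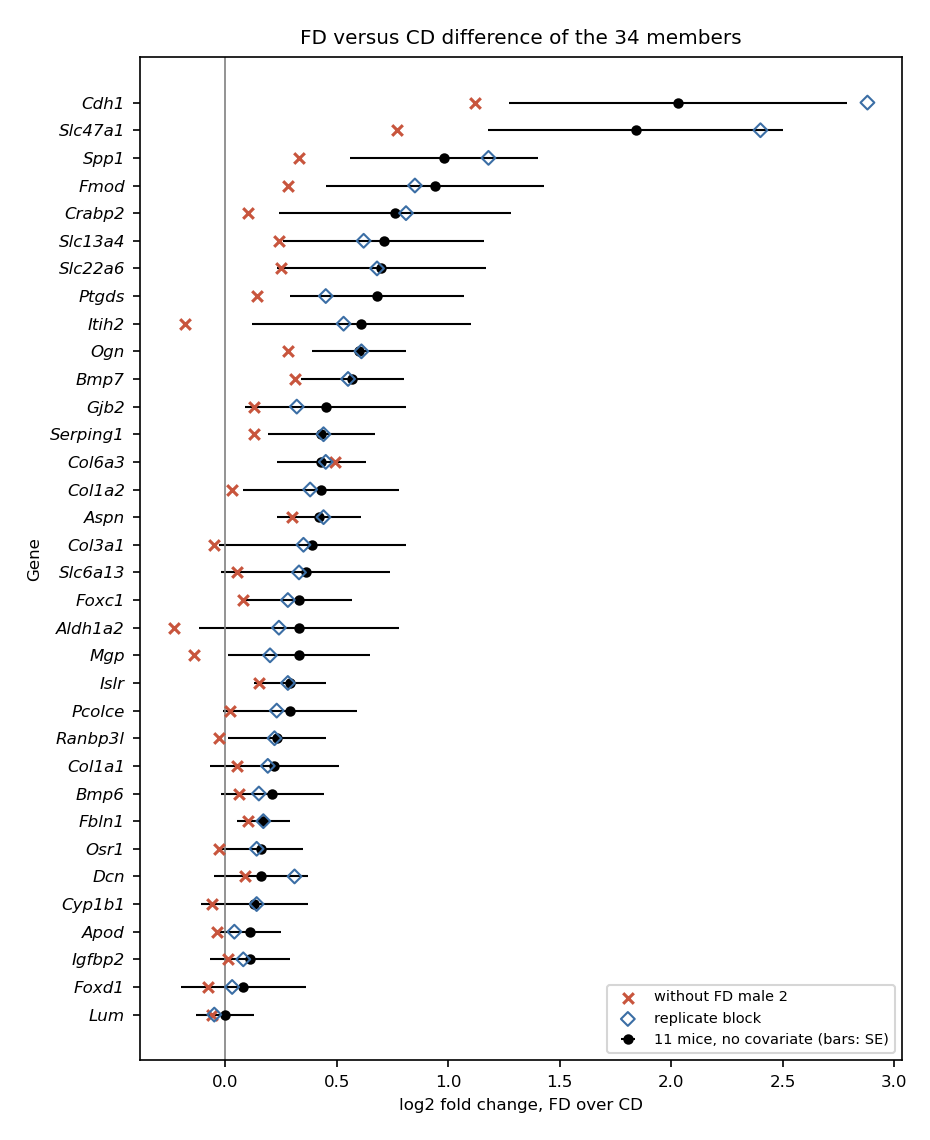
log2 fold change of FD over CD (horizontal axis) for the 34 members (vertical axis, ordered by value); black points with SE bars use all 11 mice without a covariate, red crosses leave out FD male 2, and blue diamonds use the replicate block. All black points lie at or above 0, and 10 of the red crosses lie below it.

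Ogn, osteoglycin or mimecan (chromosome 13, 49608046 to 49624501), a small leucine-rich proteoglycan of connective tissue, had the smallest p of the members. Its level was 8.45, 8.07, 9.80, 8.62, 10.1 and 6.59 CPM in CD and 10.5, 11.1, 11.6, 24.8 and 8.82 CPM in FD mice. Of the 5 FD mice, 4 lay above every CD mouse and FD female 3 lay within the CD range. The log2 fold change was 0.60 ± 0.21 (SE, unadjusted p = 0.0109, edgeR). The exact permutation test of Ogn alone over the 462 splits of the mice gave p = 0.02165 (two-sided, not adjusted over the members). A single split counts for 0.002165 on 1 side, and the two-sided p doubles the smaller side. Without FD male 2 the log2 fold change was 0.28 (unadjusted p = 0.0305, edgeR). Ogn was in the study's qPCR panel, chosen on these libraries, as were Fmod and Spp1. Their differences here are therefore not independent evidence for that choice. The study's text reports significant qPCR differences for Fxyd2 and Ptpn14 only.

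Aspn, asporin, lies 40.5 kb from Ogn (chromosome 13, 49544443 to 49567565) and belongs to the same family. It had 1.58, 1.04, 1.75, 1.54, 1.45 and 1.33 CPM in CD and 1.69, 1.71, 2.44, 2.69 and 1.41 CPM in FD mice, where FD female 2 and FD male 2 lay above all CD mice. The log2 fold change was 0.42 ± 0.19 (unadjusted p = 0.0400, edgeR). Aspn and Ogn had r = 0.82 with each other (rho = 0.84). Omd, osteomodulin, which lies between them and is no member, had r = 0.95 with Ogn (rho = 0.82) and 0.7 with Aspn. Omd had 127 counts in total and, like Ogn, was highest in FD male 2. The part of this mouse in the r of Omd and Ogn was not tested. Ecm2, of the same family and no member, lies 11.7 kb from Aspn and had r = 0.55 with it. Spp1, on another chromosome, had r = 0.89 with Ogn.

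Slc47a1 (chromosome 11, 61343401 to 61378345) and Cdh1 (chromosome 8, 106603351 to 106670246) had the largest fitted differences but few counts. Slc47a1 had 6, 8, 8, 1, 32 and 2 counts in the CD mice and 34, 6, 10, 70 and 9 counts in the FD mice. As levels these were 0.215, 0.251, 0.424, 0.0853, 0.723 and 0.133 CPM in CD and 0.988, 0.286, 0.761, 4.95 and 0.373 CPM in FD mice. FD male 2 stood far above the rest, and the other four FD mice lay among or just above the CD mice. Cdh1 had 3, 4, 4, 2, 22 and 0 counts in the CD mice and 37, 2, 7, 47 and 2 counts in the FD mice, so 5 of the 11 libraries lay at or under 3 counts. FD female 1 and FD male 2 were the highest, at 1.08 and 3.32 CPM. The log2 fold changes were 1.84 ± 0.66 for Slc47a1 (unadjusted p = 0.0129, edgeR) and 2.03 ± 0.76 for Cdh1 (unadjusted p = 0.0165, edgeR). Without FD male 2 they were 0.77 and 1.12. The genes lie on different chromosomes and had r = 0.92 with each other (rho = 0.78). Both were highest in FD male 2, and the part of this mouse in their r was not tested.

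Spp1 (chromosome 5, 104435118 to 104441050), the secreted phosphoprotein osteopontin, had 2.47, 1.73, 2.49, 2.39, 4.74 and 1.40 CPM in CD and 3.89, 1.76, 5.18, 14.2 and 2.86 CPM in FD mice. FD female 2 and FD male 2 lay above all CD mice and FD male 1 below most of them. The log2 fold change was 0.98 ± 0.42 (unadjusted p = 0.0339, edgeR), and 0.33 without FD male 2. Fmod had 6.09, 7.48, 7.68, 2.99, 8.56 and 2.66 CPM in CD and 11.6, 3.33, 13.9, 31.5 and 1.90 CPM in FD mice. In 3 FD mice Fmod was above every CD mouse, and FD female 3 was the lowest of all. Its log2 fold change was 0.94 ± 0.49 (unadjusted p = 0.0741, edgeR), and 0.28 without FD male 2.

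Bmp7 (chromosome 2, 172868012 to 172940321) had 6.2, 7.54, 6.57, 3.84, 6.25 and 4.86 CPM in CD and 9.30, 6.00, 9.37, 15.8 and 5.22 CPM in FD mice, again with 3 FD mice above all CD mice and the other two among them. The log2 fold change was 0.57 ± 0.23 (unadjusted p = 0.0227, edgeR), and 0.31 without FD male 2. Col6a3 had 0.43 ± 0.20 (unadjusted p = 0.0454, edgeR), and was the only member whose fitted value was not lower without FD male 2 (0.49). All 5 FD mice lay above the CD median for Col6a3, Ogn and Slc47a1. The other 26 members had log2 fold changes from 0.00 (Lum) to 0.76 (Crabp2), none with an unadjusted p under 0.05.

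**Figure D5:**
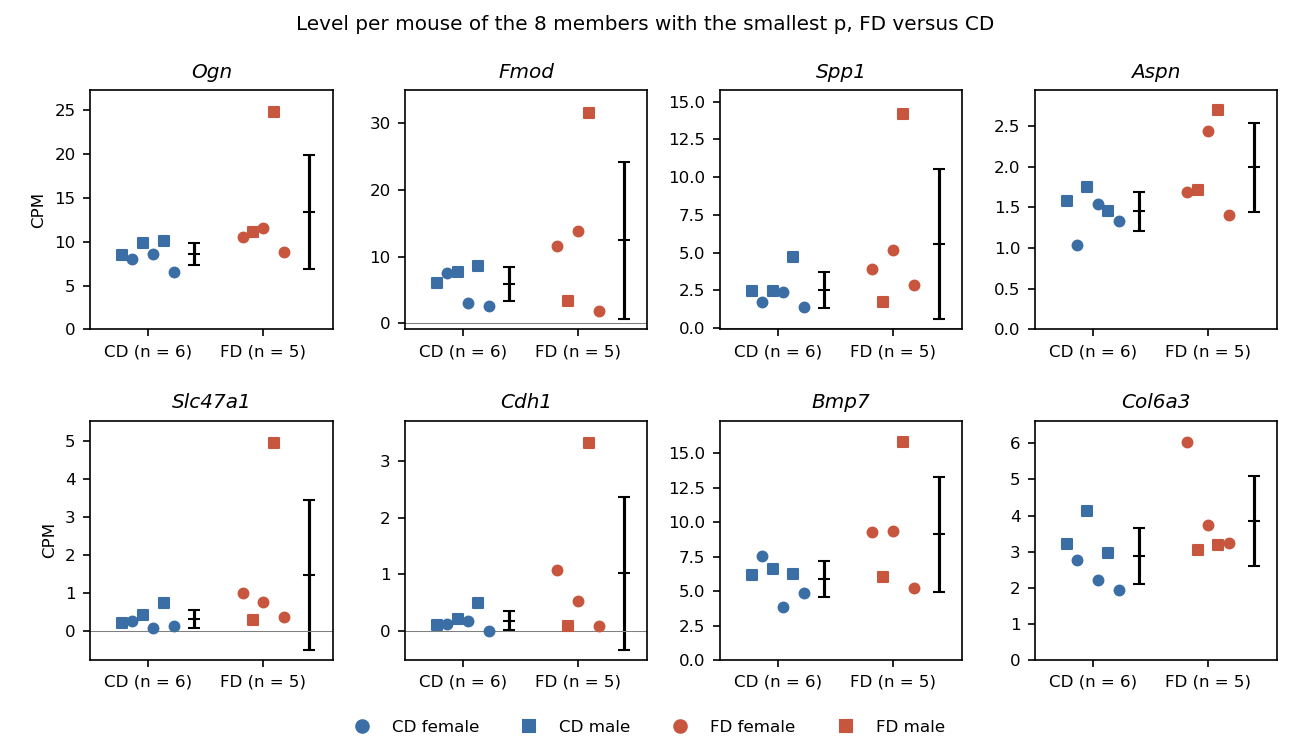
Level in CPM per mouse (vertical axes) of the 8 members with the smallest p between FD and CD; circles females, squares males, black marks and bars mean ± SD (CD n = 6, FD n = 5). FD male 2 is the highest point for 7 of the 8 genes, and FD female 1 for Col6a3.

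When mice with the same sex and number in the labels were paired in the model, 3 members passed the threshold, against 0.114% of the 20212 genes tested in that fit. These were Slc47a1 (log2 fold change 2.4) and Cdh1 (2.88), both with an adjusted p of 0.0083, and Ogn (0.61, adjusted p = 0.0657, edgeR with the replicate block). Spp1 had an adjusted p of 0.102. No label names a litter or batch shared by such a pair, and with sex removed the deviations of the paired mice had r under 0.1 in 3 of the 5 pairs. The pairing leaves out CD male 3, which has no partner and was the CD mouse with the most Slc47a1, Cdh1, Ogn and Spp1. Leaving out that mouse without pairing gave 2.46 for Slc47a1 and 2.86 for Cdh1, with an adjusted p of 1.0 for both. Within pairs, Ogn, Aspn and Slc47a1 were higher in the FD mouse in 5 of 5. Cdh1, Spp1 and Bmp7 were higher in 4 of 5, as were Col1a1, Col1a2, Col3a1, Islr, Serping1, Slc22a6 and Ranbp3l. The share over all genes is not given here. The same mice gave the p-values, so these counts are no separate evidence. Each pair was then left out in turn (edgeR with the replicate block, an alternative added after the values were seen). Slc47a1 and Cdh1 no longer passed without the male 2 pair, with an adjusted p of 0.297 and 0.282, and passed without any other pair. Ogn passed only without the female 1 pair (adjusted p = 0.0291), and had an adjusted p of 0.16 without the female 2 pair, 0.138 without the female 3 pair, 0.138 without the male 1 pair and 0.21 without the male 2 pair. Without the male 1 pair, Spp1 (adjusted p = 0.00539) and Slc22a6 (adjusted p = 0.0904) passed as well.

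To ask what differed beyond the shared level, the mean log2 level of Col1a1, Col1a2 and Col3a1 was added to the diet model, and the other 31 members were read from it. None passed the adjusted threshold, and the median log2 fold change was 0.12. Bmp7 (0.41), Ogn (0.48), Slc47a1 (1.15), Serping1 (0.27), Col6a3 (0.39) and Aspn (0.38) had an unadjusted p under 0.05, 6 of the 31 against 2.53% of all genes in that fit, and Fmod (0.25) and Cdh1 (0.99) did not. Of these 6, 5 were also under 0.05 in the fit without the covariate, so the count is no separate evidence. Slc6a13 (-0.03) and Cyp1b1 (-0.02), which followed the list closely, had values near 0. So did Lum (-0.04) and Igfbp2 (0.01), which followed it less. Other members that followed it closely lay further from 0, such as Aldh1a2 (-0.24), Slc22a6 (0.15) and Slc13a4 (0.14).

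Between the sexes, with diet in the model, Ogn was the only member past the adjusted threshold, against 1257 genes in all (6.11%). Ogn was higher in males by 0.52 ± 0.16 on the log2 scale (adjusted p = 0.0956, edgeR). The call was lost on leaving out any of 8 of the 11 mice, with adjusted p-values from 0.148 without CD male 3 to 0.28 without FD male 2, where the value was 0.23, and DESeq2 gave an adjusted p of 0.106. At an unadjusted p under 0.05 there were 3 members, Ogn, Slc47a1 (1.62 ± 0.56) and Spp1 (0.94 ± 0.36), against 20.3% of all genes. In all, 28 of 34 members had a value above 0, against 49.1% of all genes, with a median log2 difference of 0.27, and without FD male 2 only 9 did.

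The difference between FD and CD was not shown to vary with sex for any member. In the diet by sex interaction (edgeR), 0 members and 0 of all genes passed the adjusted threshold (0.0%), and DESeq2 gave 0 as well. Col6a3 was the single member with an unadjusted p under 0.05, against 1.9% of all genes. Its FD over CD difference was lower in males than in females by an interaction of -1.02 ± 0.35 (unadjusted p = 0.0095, edgeR, adjusted p = 1.0). In females the FD mice had 6.05, 3.73 and 3.23 CPM and the CD mice 2.76, 2.22 and 1.93 CPM. In males the FD mice had 3.05 and 3.18 CPM and the CD mice 3.22, 4.13 and 2.96 CPM. Col6a3 is shown because of its p, so these values are no separate evidence.

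Further genes of the same families were read from lists that hold no member. Of 11 other small leucine-rich proteoglycans, 0 passed the diet threshold and 10 had a fold change above 0, with a median of 0.14. Omd (1.34 ± 0.60) and Podn (0.35 ± 0.15) had an unadjusted p under 0.05 (edgeR), against 2.59% of all genes. Both were highest in FD male 2, and Omd had 127 counts in total. Bgn, biglycan, followed the members with r = 0.95. The median r of single genes of the family was 0.42, and their standardized mean had r = 0.86 with the member level (0.60 without CD female 3 and FD male 2). Of 20 genes of collagen matrix and its assembly, 0 passed, 15 had a fold change above 0 and the median was 0.12. Col8a1 and Thbs2 had r = 0.94 with the member level, while 12 of the 20 had r under 0.5, among them enzymes such as P4ha1 that other cells also use, and the standardized mean had r = 0.78 (0.58 without the same mice). Of 16 other meningeal and fibroblast genes, 0 passed, 11 had a value above 0 and the median was 0.09, and their standardized mean had r = 0.91 (0.81 without the same mice). Lama1, a basement membrane laminin (0.55 ± 0.26, r = 0.94), Zic1 (0.46 ± 0.21) and S100a6 (-0.21 ± 0.08) had an unadjusted p under 0.05 (edgeR). The share of all genes was again 2.59%.

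Of 13 other retinoic acid genes, 0 passed the diet threshold, the median log2 fold change was 0.02, and 11 had r under 0.5 with the members. Their standardized mean had r = 0.47 with the member level (0.62 without CD female 3 and FD male 2). Of 17 other BMP genes, 0 passed and the median was 0.01. Taken singly, 13 of them had r under 0.5, while their standardized mean had r = 0.82 (rho = 0.78, r = 0.75 without the same mice). Bmp5, another ligand of this family, had r = 0.92 and a log2 fold change of 0.29 ± 0.29. The targets Id1, Id2 and Id3, whose transcripts BMP signalling is known to raise, had values of -0.05 ± 0.11, 0.00 ± 0.05 and -0.01 ± 0.11. Between the sexes, 5 of the 77 genes in these lists passed the threshold (6.49%), close to the 6.11% of all genes. Prelp was lower in males and Lama2, Abcb1a, Bmpr1b and Bmpr2 were higher, by -0.23, 0.30, 0.28, 0.19 and 0.54 on the log2 scale, with adjusted p-values between 0.0621 and 0.0993 (edgeR).

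Marker lists of other cell types were set beside the member level in the same mice, and none held a gene that passed the diet threshold. Vascular markers moved with it in part. The standardized mean of 7 mural cell genes had r = 0.76 (rho = 0.68, r = 0.54 without CD female 3 and FD male 2), and that of 6 endothelial genes had r = 0.58 (rho = 0.55, r = 0.49 without them). Of these genes, 4 and 3 were highest in FD male 2, and none was at 0 in any mouse. By single gene, the median r was 0.61 in the mural list and 0.57 in the endothelial list, and 3 genes of each had r under 0.5. These were Rgs5 (0.39), Kcnj8 (0.12) and Abcc9 (0.43) among mural genes, and Cldn5 (-0.21), Kdr (-0.01) and Flt1 (0.45) among endothelial genes. Summed mural levels were 133.0 to 193.0 CPM in CD and 130.0 to 216.0 CPM in FD mice, with FD male 2 at 216.0. The standardized mean of 5 hippocampal neuron genes ran the other way, with r = -0.82 (rho = -0.53, r = -0.52 without the same mice). Taken singly, these genes had a median r of -0.53, with Prox1 at 0.04 and Wfs1 at -0.38. Their sums were 3470.0 to 4010.0 CPM in CD and 3390.0 to 3960.0 CPM in FD mice, with the lowest in FD male 2. The remaining lists had r = -0.25 for 12 choroid plexus genes, -0.27 for 7 oligodendrocyte genes, -0.17 for 6 microglial genes, 0.36 for 5 astrocyte genes and 0.34 for 5 blood genes. The astrocyte mean had rho = 0.52, and r = 0.45 without CD female 3 and FD male 2, near the endothelial values. For the blood mean these were 0.35 and 0.26. Without FD male 2 alone, r was 0.63 for mural, 0.56 for endothelial, 0.55 for astrocyte and 0.51 for blood genes. CD female 3, the lowest mouse for the members, had the highest Ttr, a choroid plexus transcript, at 54.7 CPM against a CD median of 16.1 CPM, and the highest level of all 7 oligodendrocyte genes. Of the 12 choroid plexus genes, Ttr (-1.19 ± 0.47) and Kcne2 (-1.64 ± 0.76) had an unadjusted p under 0.05 between FD and CD (edgeR). Among all genes the share was 2.59%. Both were lower in FD with an adjusted p of 1.0 (edgeR), and Kcne2 had only 37 counts in total. The median log2 fold change of the 12 was -0.07, and 3 had a value above 0. Otx2 and Prlr, with which the study checked its dissection, had -0.09 ± 0.43 and -0.01 ± 0.12. The part of tissue composition in the member level was not tested.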

How the data were processed

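Hippocampal total RNA of 11 F1 mice was sequenced as single-end reads. The authors deposited raw counts per gene, with no normalization, made from trimmed reads that STAR placed uniquely in mm10. The submitters' processing notes name featureCounts, while the 5 summary lines of each table carry the names that HTSeq uses. The annotation release is not given in the sources used here. Of the 38293 listed genes, 95.1% were in the GENCODE annotation of GRCm38. Groups, sexes and numbers came from the labels, and replicates of a group differed beyond sampling noise.

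Tests were run in edgeR 4.0.16 under R 4.3.3 (TMM, at least 10 counts in total, quasi-likelihood test, Benjamini-Hochberg, threshold 0.1), for diet alone, sex with diet, and their interaction. SE is the log2 fold change divided by the square root of F. Levels are TMM-scaled CPM, and log2 CPM used a prior count of 2. Alternatives were DESeq2 1.42.0, other size factors and count minimums, added covariates, males or females only, and leaving out single mice. Python 3.11.15, pandas 2.3.3, SciPy 1.17.1 and matplotlib 3.10.9 made the tables and figures. Scripts were tested on simulated counts. Limits from 3 counts cover counting error only.

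The members and lists were chosen with earlier results of these data known. Named genes were the 8 members with the smallest diet p, members called in any contrast, those with r under 0.5 and the 3 with the highest r, the qPCR genes, the 10 most similar other genes, of which not all are reported here, and list genes where a count of 5 or fewer was given. P4ha1, the Id genes and Ttr were named after their values were seen.

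CD and FD mice share sex and number labels, and no label names a shared litter. Deviations from the group means correlated within every such pair (r = 0.325, 0.307, 0.54, 0.391 and 0.418 for female 1, female 2, female 3, male 1 and male 2 over all genes with enough counts), which met the rule for using the pairing as a block, although mice of a pair share their sex. With sex also removed the values were 0.047, 0.386, 0.257, 0.005 and 0.097, and over the members alone 0.427, -0.466, 0.663, 0.106 and 0.487.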

Additional observations from a re-analysis of the deposited data

Results flagged for a closer look

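Of 68 groups of mice tested for a mouse far from the others of its group (34 members in CD and in FD), 2 were flagged, fewer than the 1 in 20 that chance gives on average. Col3a1 was lowest in CD female 3, at 0.799 CPM, where the other CD mice lay between 2.56 and 4.24 CPM. Ogn was highest in FD male 2, at 24.8 CPM, where the other FD mice lay between 8.82 and 11.6 CPM.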

How the results depend on the processing

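No member passed the diet threshold under any alternative without the replicate block, and the median log2 fold change of the members stayed above 0, from 0.09 without FD male 2 to 0.55 without FD male 1. With the replicate block the number of members called was 3, and it was 3 without the female 1 pair, 2 without the female 2 or the female 3 pair, 4 without the male 1 pair and 0 without the male 2 pair (pairs left out were added after the data were seen). Ogn was called with the block and without the female 1 pair, and lost its call without each other pair, while Spp1 and Slc22a6 were called without the male 1 pair alone. Between the sexes the count of 1 became 0 with DESeq2, 15 with a minimum of 1 count in total and 3 with the collagen level as a covariate. It ranged from 0 to 4 with each mouse left out, where the log2 difference of Ogn ranged from 0.23 to 0.67. The cause was not tested. The median r of the members ranged from 0.82 with 5 fibroblast genes as the reference to 0.95 with diet and sex removed.

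Several diet fold changes crossed 0, among them that of Itih2 (0.61 with all mice), and none of these was called on either side. With each mouse left out, the lowest and highest log2 fold changes were -0.23 and 0.59 for Aldh1a2, -0.04 and 0.21 for Apod, -0.06 and 0.30 for Cyp1b1, -0.05 and 0.65 for Col3a1, -0.14 and 0.52 for Mgp, -0.06 and 0.11 for Lum, -0.18 and 0.91 for Itih2, -0.03 and 0.28 for Osr1, -0.03 and 0.37 for Ranbp3l, and -0.13 and 0.26 for Foxd1. Lum was at -0.02 with sex as a covariate, -0.11 in females alone, -0.04 with the collagen covariate, and -0.05 with the replicate block. Under the block Lum was at -0.08 without the female 2 pair and -0.11 without the female 3 pair, and Foxd1 at -0.19 without the female 1 pair. Without the male 2 pair, the block gave -0.12 for Aldh1a2, -0.07 for Apod, -0.14 for Mgp, -0.15 for Lum, -0.02 for Itih2, -0.03 for Igfbp2, -0.08 for Osr1 and -0.05 for Foxd1. In females alone Apod was at -0.05 and Igfbp2 at -0.01, and in males alone Col6a3 was at -0.10. The collagen covariate gave -0.24 for Aldh1a2, -0.02 for Cyp1b1, -0.03 for Slc6a13 and -0.04 for Foxd1. Counts of 0 to 9 in single mice limit Cdh1, Slc47a1, Crabp2 and Foxd1.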

Other observations

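Outside the list, 48 of 14406 genes that averaged 1 CPM or more had r over 0.9 with the member level. Among the 10 highest were Igf2 (0.984), Slc6a20a (0.979), Colec12 (0.973), Cavin1 (0.972), H2-Aa (0.965), Alx4 (0.962), Nid1 (0.962), Mrc2 (0.959) and Col4a5 (0.956). Igf2, an imprinted growth factor that the leptomeninges and the choroid plexus secrete, ranged from 29.8 to 65.7 CPM in CD and from 25.7 to 142.0 CPM in FD mice, with the highest value in FD male 2. Its log2 fold change between FD and CD was 0.57 ± 0.34 (adjusted p = 1.0, edgeR). Slc6a20a, an amino acid transporter, ranged from 5.06 to 12.5 CPM in CD and from 5.05 to 30.5 CPM in FD mice. H2-Aa, a class II antigen-presenting chain of macrophages and dendritic cells, is not a fibroblast gene and ranged from 0.20 to 1.16 CPM in CD and from 0.19 to 5.02 CPM in FD mice. Colec12 is a scavenger receptor, Alx4 is a homeobox factor, and Nid1 and Col4a5 are basement membrane proteins. The adjusted p of the diet comparison was 1.0 for each gene named here (edgeR).

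The neighbouring members Aspn and Ogn had r = 0.82, and Dcn and Lum had r = 0.63. Fmod and its relative Prelp, which is no member and lies 115.8 kb away on chromosome 1, had r = 0.36.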
